A study of Mus musculus with 2 samples.

Results

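Long noncoding RNAs (lncRNAs) are long transcripts that are often polyadenylated but are not known to be translated, and several of them stay in the nucleus, where droplet libraries of brain cells or nuclei detect them well. This report follows 9 of them, Malat1, Meg3, Rian, Mirg, Miat, Neat1, Snhg11, Snhg14 and Pantr1, in cells of the mouse cerebral cortex. The members were picked by gene symbol, not by a threshold on their levels, and all 9 were among the 55450 genes of the deposited tables. Each level is the number of unique molecular identifiers (UMIs, which stand for captured RNA molecules) of a gene per 1000000 UMIs of the same cells, written as CPM.

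Malat1 and Neat1 are neighbouring genes. Malat1 RNA is stored in nuclear speckles, which hold splicing factors, and Neat1 RNA is the scaffold of paraspeckles, bodies that appear or grow in stressed cells. Meg3, Rian and Mirg lie one after the other in an imprinted domain, where they are read from the maternal chromosome, and Rian and Mirg give rise to small nucleolar RNAs (snoRNAs) and microRNAs. Snhg14 is the paternally read host of the snoRNAs beside Snrpn and runs antisense to Ube3a, Snhg11 is another snoRNA host, Miat is a nuclear transcript of neurons, and Pantr1 lies beside the neural transcription factor gene Pou3f3.

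The 2 libraries were single-cell RNA sequencing of cerebral cortex from C57BL/6 mice, labelled 2 weeks old, with 1 control library and 1 library of the white matter injury (WMI) group. Per the labels, the right common carotid artery was tied on postnatal day 7 under 1 h of hypoxia, and the cortex of the tied side, or of the same side in the control group, was taken on postnatal day 14. The treatment text stands on both samples, so what the control mice underwent is not clear from it. The labels and the study's text differ on the ages, on the length of hypoxia and on whether cells or nuclei were loaded. They also differ on the origin of the control tissue, which the study's results describe as the control side of the cortex. The labels give no sex and do not say how many mice a library pooled.

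With 1 library per group no test between the groups was possible. Intervals are exact 95% intervals (Poisson for a level, conditional binomial for a ratio, Clopper-Pearson for a share). They cover counting error only, and a difference between the libraries cannot be told apart from a difference between animals, their sex, dissections or runs. A change was therefore counted by size alone, as at least 1.5-fold either way where a gene reached 200 UMIs in the summed libraries, and it was read against the share of all genes past the same fold.

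The control library held 10288 barcodes and 66470806 UMIs, and the WMI library held 8354 barcodes and 60568639 UMIs. The median share of mitochondrial UMIs per barcode was 0.0696% in control and 0.472% in WMI. After filters 8755 control and 7571 WMI cells were kept, at medians of 4450 and 4974 UMIs, and 31 barcode sequences were shared by kept cells of both. The mix of cells differed, with excitatory neuron-like cells at 74.5% of control and 29.8% of WMI cells and microglia-like cells at 4.49% and 14.7%. Clusters 0 and 3, both excitatory neuron-like, held 3466 control and 82 WMI cells, while cluster 6, left unnamed, held 15 and 821. Levels are thus given by class, and for excitatory neuron-like cells also over the clusters that both libraries shared, which held 3058 control and 2173 WMI cells. Cells with a Y-linked UMI and no Xist UMI numbered 6520 of 8755 in the control and 1963 of 7571 in the WMI library. Among excitatory neuron-like cells they were 4685 of 6524 and 603 of 2255, so this share differed between the libraries. Defining markers of cortex were present in both, with Slc17a7 of excitatory neurons at 229 and 204 CPM.

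Coordinates are those of GENCODE M21 on GRCm38, from the first to the last base of each gene. Malat1 (ENSMUSG00000092341) lies at chr19:5795690-5802672 on the minus strand, and Neat1 (ENSMUSG00000092274) lies beside it at chr19:5824708-5845478 on the same strand. Meg3 (ENSMUSG00000021268, chr12:109541001-109571726), Rian (ENSMUSG00000097451, chr12:109603940-109661716) and Mirg (ENSMUSG00000097391, chr12:109729764-109749460) follow each other on the plus strand of chromosome 12. Snhg14 (ENSMUSG00000100826) spans chr7:59307924-59975759 on the minus strand and overlaps 211 annotated genes on its own strand, most of them small RNAs, with Ube3a on the other strand. Miat (ENSMUSG00000097767, chr5:112213228-112229395, minus strand), Pantr1 (ENSMUSG00000060424, chr1:42590782-42694842, minus strand) and Snhg11 (ENSMUSG00000044349, chr2:158375638-158386145, plus strand) stand elsewhere, and the annotation lists Snhg11 as protein-coding. Whether reads in introns were counted is not given in the sources used here, and reads of overlapping genes may be split between them.

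The domain of Meg3, Rian and Mirg is shown first by the window around the Meg3 start, since these 3 genes were the closest in pattern of all members. The RefSeq window (GRCm38.p6, chr12:109540746-109541045, plus strand, 250 bases before to 50 after the start) lies just upstream of and over the start of the gene. Capitals mark CCAAT, then TGACGTCA, then 2 matches of TATAAA that overlap on opposite strands.
Meg3 promoter: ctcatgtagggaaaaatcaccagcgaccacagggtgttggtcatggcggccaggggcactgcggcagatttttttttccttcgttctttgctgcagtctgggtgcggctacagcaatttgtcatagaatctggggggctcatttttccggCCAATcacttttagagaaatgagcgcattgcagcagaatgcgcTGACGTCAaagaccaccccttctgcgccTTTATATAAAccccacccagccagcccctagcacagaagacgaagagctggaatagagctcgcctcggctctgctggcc
These 3 motifs were chosen after this window had been read. Searched on both strands of 32851 promoter windows, CCAAT was in 37.4%, TATAAA in 13.6%, TGACGTCA in 1.79% and all 3 together in 21 windows. The window listed for Rian held none of them. That for Mirg, which lies inside the annotated gene (chr12:109734731-109735030), held CCAAT alone. Another window listed for Meg3, also inside the gene (chr12:109545148-109545447), held none of the 3.

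The annotated spans of Meg3, Rian and Mirg, introns included, contain 35 mature microRNAs of RefSeq on the same strand. Of these, 3 lie within Meg3, 6 within Rian and 26 within Mirg, with 34 different seeds (bases 2 to 8, in capitals). They are shown to make clear what the host counts cannot tell, because the libraries count the host RNA and not the mature microRNAs. The only seed that 2 of them shared was GGUUGCC, in microRNAs of Mirg (plus strand of chromosome 12, GRCm38.p6, chr12:109735669-109735692 and chr12:109739132-109739152).
mmu-miR-453: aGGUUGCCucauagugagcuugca
mmu-miR-496a-5p: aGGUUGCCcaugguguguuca

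Neat1 has 4 annotated transcripts, among them a long form of 20771 bases and a short form of 3004 that start at nearly the same place, and the counts per gene do not separate them. The last 60 bases of each form (GENCODE M21, GRCm38) are shown beside that of Malat1, with the poly(A) signal AATAAA in capitals where it occurs. Malat1-201 ends at chr19:5795690-5795749, the long form Neat1-201 at chr19:5824708-5824767 and the short form Neat1-202 at chr19:5842307-5842366.
Malat1-201 end: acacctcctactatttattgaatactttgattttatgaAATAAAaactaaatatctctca
Neat1-201 end: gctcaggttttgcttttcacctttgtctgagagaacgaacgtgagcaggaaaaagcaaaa
Neat1-202 end: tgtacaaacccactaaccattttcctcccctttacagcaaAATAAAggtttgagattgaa
The signal was in the last 60 bases of 27.2% of 141515 annotated transcripts, and it was in the short but not in the long form of Neat1.

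The name of abundant RNAs held for 7 of the 9 members and not for Neat1 and Pantr1. In kept control cells Malat1 was the most frequent gene of the library, with 2.80% of all UMIs, and Meg3 ranked 3 of the 12894 genes with at least 200 UMIs there, with 1.14%. Snhg11 (0.208%), Rian (0.103%), Snhg14 (0.0856%), Miat (0.0509%) and Mirg (0.0203%) followed. Pantr1 held 0.00700% and ranked 2323, and Neat1, with 525 UMIs among 8755 cells, ranked 9503. Per kb of exon the order of the levels in control cells was Malat1 (4003), Meg3 (630), Snhg11 (244), Rian (56.5), Miat (54.8), Snhg14 (32.8), Mirg (27.8), Pantr1 (15.7) and Neat1 (0.445), in CPM per kb. Rian and Miat were neighbours in that order at close levels. In WMI cells Malat1 again ranked 1 (2.51%), Meg3 ranked 2 (1.07%), Pantr1 ranked 3081 and Neat1, with 2320 UMIs, ranked 3736. The 9 together made up 4.41% of control and 3.96% of WMI UMIs.

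Malat1 was higher in the named glial classes than in excitatory neuron-like cells of shared clusters and inhibitory neuron-like cells in both libraries. It reached 72550 CPM in control and 93899 in WMI mature oligodendrocyte (OL)-like cells, and 55604 and 68841 in astrocyte-like cells. In excitatory neuron-like cells of shared clusters it stood at 22931 and 17786. Across all named classes the level in neuron-like cells was below that in non-neuronal cells, with a log2 ratio of −0.84 (interval −0.84 to −0.83) in control and −1.22 (−1.22 to −1.21) in WMI. Every mature OL-like, astrocyte-like and shared-cluster excitatory neuron-like cell held Malat1 after thinning to 1000 UMIs. Not all neuron-like cells were below all glia. Migrating neuroblast-like cells had 30922 CPM in control and 26662 in WMI. Oligodendrocyte precursor (OPC)-like cells had 29913 and 28406, and premyelinating (pre-OL)-like cells 30338 and 27788. Control cells of the excitatory neuron-like cluster 0 had 43355, above control microglia-like cells (36479).

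Meg3 ran the other way. Its highest class in both libraries was inhibitory neuron-like, at 17003 CPM in control and 16829 in WMI, followed by the neuron-like cells of cluster 8. Excitatory neuron-like cells of shared clusters had 11988 and 12437, and the 87 WMI cells of the striatal projection neuron-like cluster 27 had 13441. Its lowest was mature OL-like, at 2840 and 2217. The log2 ratio of neuron-like to non-neuronal cells was 1.47 (1.46 to 1.49) in control and 1.65 (1.63 to 1.66) in WMI.

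The other members of the imprinted domain and the snoRNA hosts had the same division. Log2 ratios of neuron-like to non-neuronal cells in control and WMI were 1.35 and 1.41 for Rian and 1.87 and 1.87 for Mirg. They were 1.21 and 1.12 for Snhg11, 1.08 and 1.34 for Snhg14 and 1.39 and 1.18 for Miat. Miat was the one of these with less in inhibitory neuron-like cells (348 and 278 CPM) than in excitatory ones of shared clusters (545 and 442). The plot of levels by class shows both patterns. An exception were control migrating neuroblast-like cells, which are pooled as neuron-like. They were below control microglia-like cells for Meg3 (5936 and 6264 CPM), Snhg11 (1061 and 1319) and Snhg14 (523 and 578). For Rian, Mirg and Miat, and for all of these members in WMI, the neuroblast-like cells were above the microglia-like cells.

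**Figure D1:**
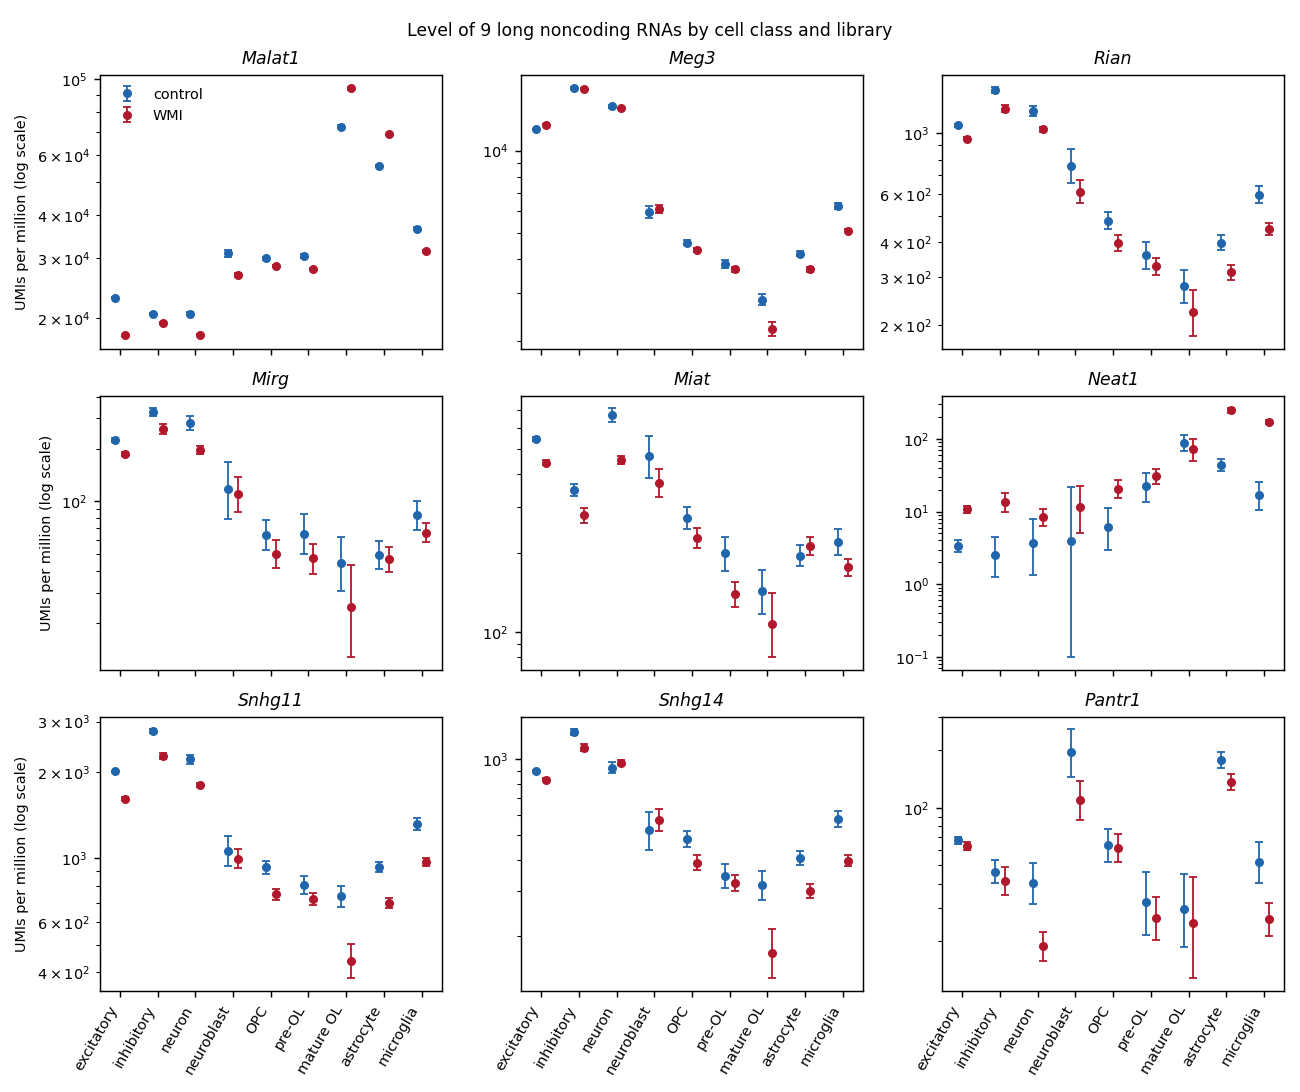
Level of each of the 9 lncRNAs (CPM, log scale) in 9 cell classes of the control (blue) and WMI (red) library, with exact 95% Poisson intervals as bars. The excitatory class holds shared clusters only. With the neuroblast class left aside, Malat1 and Neat1 were higher in glia, and Meg3, Rian, Mirg, Snhg11 and Snhg14 in neurons. Neat1 separated the libraries most in astrocytes (44.2 and 247) and microglia (16.8 and 171).

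Pantr1 followed neither division. It was highest in migrating neuroblast-like cells, at 197 CPM in control and 110 in WMI from 50 and 76 UMIs, and in astrocyte-like cells, at 179 and 137. In control these classes overlapped within their counting intervals (146 to 259 and 162 to 197). Among classes of at least 50 cells its lowest was mature OL-like in control (29.6) and the neuron-like cluster 8 in WMI (18.9).

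Neat1 was low in neurons and higher in glia. The control level was 3.35 CPM in excitatory neuron-like cells of shared clusters from 112 UMIs, 44.2 in astrocyte-like, 87.5 in mature OL-like and 16.8 in microglia-like cells. Fibroblast-like cells had the highest level of a named class, 371 and 383, in 19 control and 15 WMI cells. Neuron-like cells were below non-neuronal cells by a log2 ratio of −3.12 (−3.38 to −2.85) in control and −3.62 (−3.78 to −3.46) in WMI.

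RNA set free from neurons can enter any droplet, so the neuronal members in glia were read beside 8 neuronal genes (Snap25, Syt1, Celf4, Grin2b, Gria2, Dlgap1, Nrxn3 and Kcnb2). In control microglia-like cells these 8 genes stood at a median of 55.8% of their level in excitatory neuron-like cells of shared clusters, and in WMI at 38.2%, with medians of 3169 and 3153 UMIs per microglia-like cell. Meg3 stood at 52.3% and 40.8% in the same cells, within the range of the 8 genes. Over the 10 pairs of non-neuronal class and library, Meg3, Rian, Miat and Snhg14 were within that range in 10 of 10, Snhg11 in 8 and Mirg in 7 with the other 3 below it. Snhg11 was above the range in the other 2. In OPC-, pre-OL- and astrocyte-like cells of both libraries the top of that range lay at 107% to 146%. Lying within it there cannot decide whether a level is free RNA. These glial levels cannot be told apart from free neuronal RNA and are not read as expression.

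**Figure D2:**
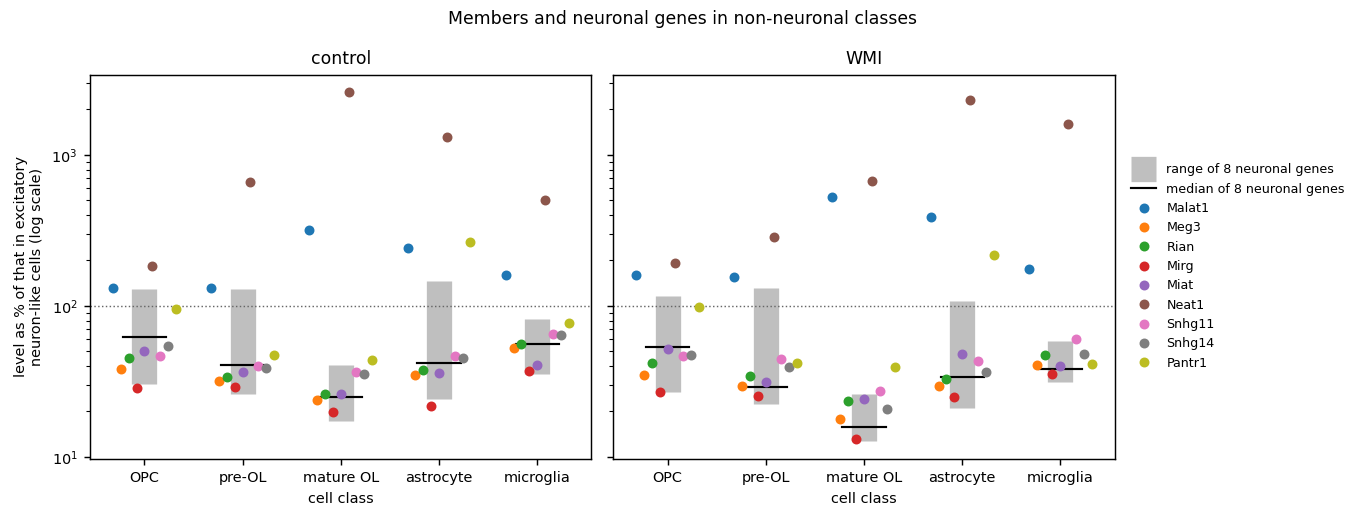
Level of each member in 5 non-neuronal classes as a percent of its level in excitatory neuron-like cells of shared clusters (log scale), control left and WMI right. Grey bars span 8 neuronal genes, black lines are their medians and the dotted line is 100%. Meg3, Rian, Miat and Snhg14 lay within the grey bars in 10 of 10 columns, Malat1 and Neat1 above 100% in 10 of 10. The grey bars of the OPC, pre-OL and astrocyte columns reach above 100% on both sides.

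Malat1 and Neat1 were above the excitatory level in 10 of 10 of these pairs, at 130% to 528% and at 184% to 2610%. Pantr1 was above it in 2, the astrocyte-like cells of both libraries (265% and 218%). In the other direction, 10 astrocyte markers stood in excitatory neuron-like cells at a median of 3.40% (control) and 3.59% (WMI) of their astrocyte level, with a range of 1.34% to 9.03% and 1.61% to 9.54%. Neat1 in these neurons was at 7.59% and 4.33% of its astrocyte level, inside that range. Set against its microglia level, it was at 19.9% and 6.27%, where 10 microglia markers ran from 0.517% to 4.17% and from 1.68% to 9.21%. Set against its mature OL level, it was at 3.83% and 14.9%, above the 10 markers of that class in both libraries (at most 2.29% and 1.43%). What part free glial RNA has in the neuronal Neat1 level was not tested.

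The question of the design was what differed after WMI. Over all kept cells 1 of 9 members was past 1.5-fold, beside 15.2% of 15383 genes, and it was Neat1. Its level was 9.24 CPM in control and 44.4 in WMI, a log2 ratio of WMI to control of 2.26 (2.13 to 2.40). The other 8 members were lower in WMI, from −0.09 for Meg3 to −0.49 for Miat, and the median of the 9 was −0.31 against 0.05 over all genes tested. The class mix, given above, moves with these values.

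In all excitatory neuron-like cells 1 of 9 members was past the fold, beside 9.14% of all genes, and over shared clusters also 1 of 9, beside 7.05%. It was Neat1 again, at 3.35 in control and 10.7 in WMI over shared clusters (log2 1.68, 1.35 to 2.01), from 112 and 263 UMIs. Malat1 was 22931 and 17786 CPM (log2 −0.37, −0.37 to −0.36). Meg3 was 11988 and 12437 (log2 0.05, 0.05 to 0.06). The remaining members lay between −0.31 for Snhg11 and −0.10 for Pantr1, and the median of the 9 was −0.16 beside 0.00 over all genes tested. Mitochondrial genes in sum also differed in these cells of shared clusters, at 973 CPM in control and 4586 in WMI. A denominator without them and Malat1 is used in the closing section. Any other part of this difference in the ratios was not tested.

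In glia Neat1 was the member past the fold in 2 classes. Astrocyte-like cells had 1 of 9 members past it, beside 16% of all genes tested in that class, and microglia-like cells 1 of 8, beside 22.6%. Neat1 in astrocyte-like cells was 44.2 CPM from 105 UMIs in control and 247 from 760 in WMI (log2 2.49, 2.19 to 2.79). In microglia-like cells it was 16.8 from 22 UMIs and 171 from 666 (log2 3.34, 2.73 to 4.03).

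These ratios stood above those of 99.5% (astrocyte) and 99.3% (microglia) of the genes tested. After thinning each cell to 1000 UMIs, Neat1 was seen in 5.21% of control and 20.0% of WMI astrocyte-like cells (16.3% and 44.7% before thinning). In microglia-like cells the shares were 1.78% and 14.0% (4.33% and 32.2% before thinning). The same thinned share was 0.327% and 0.828% in excitatory neuron-like cells of shared clusters (3.53% and 10.8% before thinning, at medians of 10091 and 9710 UMIs).

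The astrocyte-like class was made of 2 clusters whose mix differed between the libraries. Cluster 9 held 391 control and 362 WMI cells, and cluster 16, led by Gfap, A2m and Aqp4, held 70 and 222. Neat1 was higher in WMI within each, at 43.1 and 101 CPM in cluster 9 (log2 1.23, 0.86 to 1.61) and at 51.6 and 501 in cluster 16 (log2 3.28, 2.57 to 4.10). Gfap is an intermediate filament that reactive astrocytes make in quantity. This split of the class was added after the data had been seen.

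Malat1 in astrocyte-like cells was 55604 in control and 68841 in WMI (log2 0.31, 0.30 to 0.32). Within cluster 9 its log2 ratio was 0.35 (0.34 to 0.36) and within cluster 16 it was 0.01 (−0.02 to 0.03). The median astrocyte-like cell had 4.16% of its UMIs in Malat1 in control and 5.45% in WMI. Pantr1, 179 and 137 CPM over the class, was at 176 and 168 in cluster 9 (log2 −0.07, −0.29 to 0.15) and at 197 and 84.5 in cluster 16 (log2 −1.22, −1.70 to −0.73).

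In mature OL-like cells 2 of 5 members with enough UMIs were past the fold, beside 21.4% of all genes, and both were lower in WMI. Snhg11 was 737 and 439 CPM (log2 −0.75, −0.98 to −0.52), and Snhg14 was 318 and 171 (log2 −0.89, −1.27 to −0.53). Both are neuronal members whose levels here lay at 36.7% and 27.2%, and 35.4% and 20.6%, of the excitatory level, beside 17.4% to 40.3% and 12.7% to 26.2% for the 8 neuronal genes. What part free RNA has in these ratios was not tested.

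Malat1 in mature OL-like cells was 72550 in control and 93899 in WMI (log2 0.37, 0.35 to 0.39) over pooled UMIs. The median cell did not follow, with 6.51% of its UMIs in Malat1 in control and 6.49% in WMI, while the 90th percentile was 9.99% and 12.9%, in 87 control and 51 WMI cells. The value for Neat1 was 87.5 and 72.2 CPM from 65 and 35 UMIs (log2 −0.28, −0.91 to 0.34).

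In the other classes no member with at least 200 UMIs was past the fold. These were 0 of 8 in OPC-like cells (oligodendrocyte precursors, beside 4.27% of genes), 0 of 6 in pre-OL-like cells (7.74%), 0 of 8 in inhibitory neuron-like cells (6.5%), 0 of 7 in the neuron-like cluster 8 (12.5%) and 0 of 6 in migrating neuroblast-like cells (17.3%). Neat1 had fewer than 200 UMIs in each of them and was not counted. Its values were 6.15 and 20.7 CPM in OPC-like cells (10 and 47 UMIs, log2 1.75, 0.75 to 2.90) and 2.53 and 13.4 in inhibitory neuron-like cells (11 and 45 UMIs, log2 2.40, 1.43 to 3.51). In pre-OL-like cells it was 22.2 and 30.5 (log2 0.46, −0.28 to 1.26). Pantr1, also not counted for few UMIs, was lower in the neuron-like cluster 8 (66 and 132 UMIs, log2 −1.10, −1.54 to −0.65). The same held in migrating neuroblast-like cells (50 and 76 UMIs, log2 −0.84, −1.37 to −0.29) and in microglia-like cells (68 and 102 UMIs, log2 −0.99, −1.45 to −0.53). In pre-OL-like and mature OL-like cells the Pantr1 intervals held 0.

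**Figure D3:**
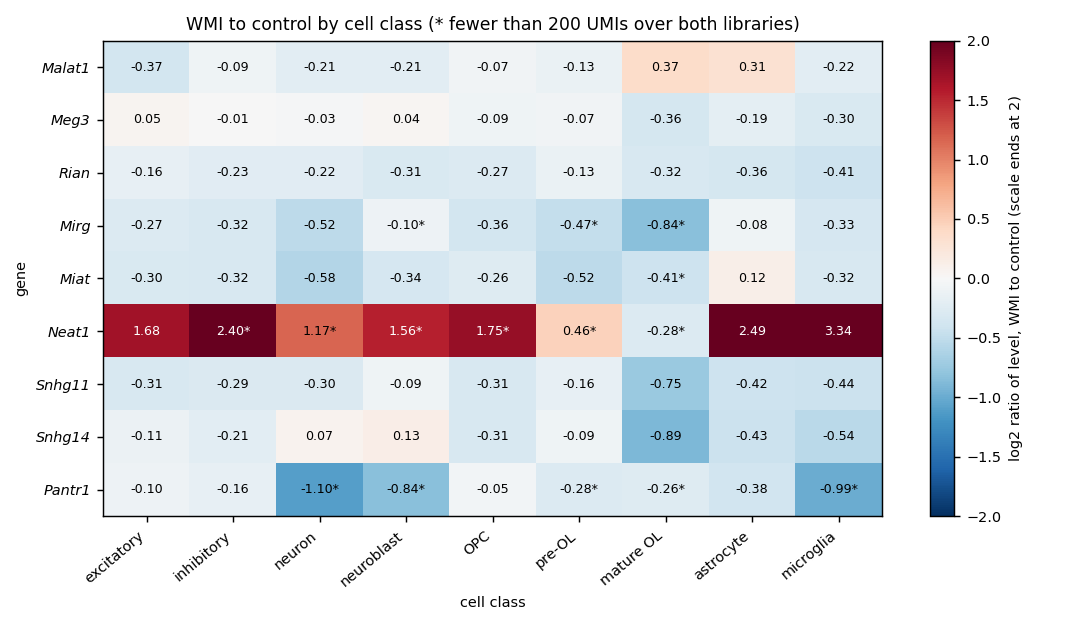
Log2 ratio of the level in the WMI library to that in the control library for each member (rows) and cell class (columns), with excitatory cells of shared clusters. Colours end at 2, and a star marks fewer than 200 UMIs over both libraries. Neat1 was positive in 8 of 9 classes and at −0.28 in mature OL-like cells. Rian, Mirg, Snhg11 and Pantr1 were negative in all 9, for Pantr1 with several starred values.

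Because the class mix differed, the members were also followed within the 22 clusters with at least 50 cells in each library. Neat1 was higher in WMI in 21 of 22, with 14 intervals above 0, and the exception was the mature OL-like cluster. In 1 of the 21, cluster 25, the control had 0 UMIs, which allows up to 3, and WMI had 5. Rian, Mirg and Snhg11 were lower in WMI in 22 of 22 clusters, with 17, 11 and 21 intervals below 0.

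Most members that were lower differed by less than the fold in most clusters. The numbers of clusters past the fold given here had no minimum of UMIs, and no share of all genes per cluster stands beside them. They are therefore not counted changes in the sense used for the classes. The lowest Mirg ratio, −0.84 in the mature OL-like cluster, came from 33 control and 12 WMI UMIs. The median log2 ratio over the 22 clusters was −0.22 for Rian, −0.33 for Mirg and −0.33 for Snhg11, and those past 1.5-fold lower were 0, 3 and 3 clusters. Miat was lower in 21 of 22 and Snhg14 in 20 of 22, with 2 clusters each past 1.5-fold lower. Pantr1, with few UMIs in many clusters, was lower in 17 of 22, with 8 intervals below 0, and was past 1.5-fold lower in 9 (lowest −1.22, in cluster 16). Malat1 was lower in 18 of 22, among them 10 of 10 excitatory neuron-like clusters, which ran from −0.52 to −0.29. Meg3 was higher in 8 and lower in 14, with no cluster past −0.37 or 0.15, and was the member with the least difference. All clusters come from the same 2 libraries and share their free RNA, so they are not replicates.

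Rian per Meg3 UMI was lower in WMI than in control over all kept cells and in the named classes compared, except mature OL-like cells. The ratio was 9.04% (8.96 to 9.12) in all kept control cells and 7.73% (7.66 to 7.81) in WMI, and 8.87% and 7.65% in excitatory neuron-like cells of shared clusters. Mirg per Meg3 UMI was 1.78% (1.75 to 1.81) and 1.46% (1.42 to 1.49). Among named classes compared, Rian per Meg3 ran from 8.23% (cluster 8) to 12.8% (migrating neuroblast-like) in control and from 7.20% (cluster 8) to 10.0% (mature OL-like) in WMI.

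Over all 31 clusters, with both libraries summed, Pearson's r of log2(level + 10) between Meg3 and Rian was 0.99 and between Meg3 and Mirg 0.98, and Malat1 had r of −0.82 with Meg3 and 0.82 with Neat1. The clusters share libraries, depth and free RNA, so these are descriptions. Among 6941 genes with at least 2000 UMIs, the 3 most like Meg3 were Rian, Mirg and A230103L15Rik, which lies within Snhg14 on its strand. For Snhg14 they were Gm44560, 9330162G02Rik and Gm44562, and those of Snhg11 included Gm44831 and Prkar1b. Miat was most like Rapgefl1, L3mbtl1 and Matk.

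Neat1 was most like Il6st (the signalling receptor of the interleukin-6 family, r 0.88), Adipor2 and Lamp2, a lysosomal membrane protein. The genes most like Malat1 included Gm37376 and Adipor2, and Gm37376 is annotated on the opposite strand over Malat1 itself, so its 2476 UMIs cannot be told apart from misassigned Malat1 reads where strand was not used. Pantr1 was most like AC122898.1, Pou3f3 (r 0.77) and Gm28175, of which Pou3f3 is its neighbour.

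Levels differed by depth, and not in the same way in the libraries. In control, Malat1 was 15826 CPM in 744 cells of 1000 to under 2000 UMIs and 21509 in 486 cells of 16000 or more (log2 −0.44, −0.47 to −0.42). In WMI it was 34594 in 793 shallow and 19678 in 586 deep cells (log2 0.81, 0.80 to 0.83). Meg3 did the reverse, at 17943 and 12235 in control (log2 0.55) and 9004 and 12339 in WMI (log2 −0.45). Without the clusters mostly of 1 library, Meg3 was lower in the shallow cells of both libraries. It was then 6224 and 12235 in control and 8318 and 12349 in WMI.

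Miat and Snhg11 were the members most raised in shallow control cells after Neat1. Miat was 1729 in shallow and 464 in deep control cells (log2 1.90, 1.82 to 1.98), and Snhg11 was 5629 and 1921 (log2 1.55, 1.51 to 1.59). In WMI the same ratios were 0.08 and 0.28. Snhg14 was lower in the shallow cells of both, by log2 ratios of −0.62 and −0.45. Without the clusters mostly of 1 library, Miat was 234 in shallow and 464 in deep control cells, and Snhg11 was 1507 and 1921. Of these 46 shallow control cells, 31 were microglia-like. Within excitatory neuron-like cells of shared clusters, the lowest class was 2000 to under 4000 UMIs. Its log2 ratio to deep cells was 0.08 in control and 0.30 in WMI for Miat, and 0.32 and 0.43 for Snhg11.

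**Figure D4:**
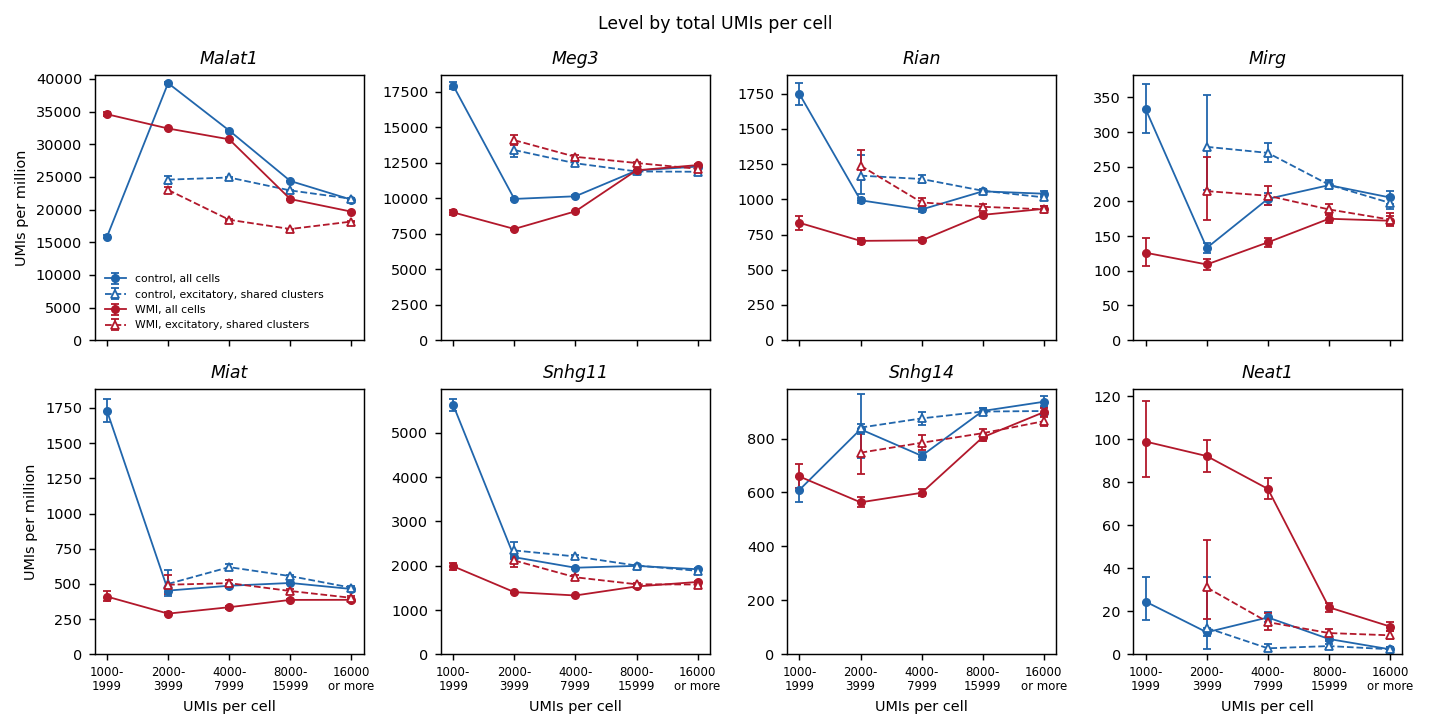
Level of 8 members (CPM) by total UMIs per cell, for all kept cells (filled circles, solid lines) and for excitatory neuron-like cells of shared clusters (open triangles, dashed lines), control blue and WMI red, with exact 95% Poisson intervals. Only classes with enough cells are drawn. In cells of 1000 to under 2000 UMIs Malat1 was 15826 in control and 34594 in WMI, while the dashed Malat1 lines run from 24579 to 21652 in control and from 23002 to 18159 in WMI.

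The shallow control cells were nearly all excitatory neuron-like. Of the 744, 698 were of that class, and 46 remained after the clusters mostly of 1 library were left out, 31 of them microglia-like. In those 46 cells Malat1 was 37758 CPM, and the log2 ratio to deep cells turned from −0.44 to 0.81, beside 0.80 in the WMI library treated alike. Within excitatory neuron-like cells of shared clusters, where 2000 to under 4000 UMIs was the lowest class with enough cells, the ratio to deep cells was 0.18 (0.15 to 0.22) in control and 0.34 (0.31 to 0.37) in WMI. Leaving out the clusters mostly of 1 library thus changed the sign in control, but it also changed the classes compared. Of the deep cells then left, 434 of 486 in control and 420 of 582 in WMI were excitatory neuron-like. Of the 341 shallow WMI cells left, 192 were unnamed. Within astrocyte-like cells the Malat1 ratio of the lowest to the highest depth class with enough cells was log2 −0.31 in control and −0.55 in WMI. In OPC-, microglia- and inhibitory neuron-like cells the same ratio lay between 0.03 and 0.34. What part depth or cell class has in the opposite signs of Malat1 in the whole libraries was not tested.

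Those clusters had member profiles of their own, and within cluster 3 the cells of the 2 libraries differed in Malat1 and Meg3. Cluster 3 (1094 control cells, median 1662.5 UMIs), beside the shared excitatory clusters of the same library, had Malat1 at 14662 against 22931 CPM (log2 −0.65) and Meg3 at 18687 against 11988 (log2 0.64). Miat stood at 1767 against 545 (log2 1.70) and Snhg11 at 5942 against 2009 (log2 1.56). Rian (0.79) and Mirg (0.62) were higher as well, and Snhg14 was lower (−0.54). Neat1 had the largest ratio, at 19.9 against 3.35 CPM from 44 and 112 UMIs (log2 2.57, 2.03 to 3.08). Mitochondrial genes in sum were higher by a log2 ratio of 1.55, at 2848 CPM. In the 32 WMI cells of cluster 3, Malat1 was higher than in the WMI shared clusters, at 25599 against 17786 (log2 0.53), and Meg3 was at 12836 against 12437 (log2 0.05).

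Barcodes under 1000 UMIs, which are not among the kept cells, had levels near those of cluster 3 in the control library. The 739 such control barcodes had Malat1 at 13162, Meg3 at 18403, Miat at 1832 and Snhg11 at 6081. In the 208 such WMI barcodes the same members were at 17560, 15279, 1045 and 4281. Neat1 was at 31.3 CPM in these control barcodes and at 109 in the WMI ones, from 17 and 16 UMIs, beside 3.35 and 10.7 in the shared excitatory clusters. What part free RNA or damaged cells have in cluster 3 was not tested.

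Cluster 0 (2372 control cells, median 2885.5 UMIs) differed from the shared clusters in the direction opposite to cluster 3 for Malat1, Meg3, Mirg and Miat. Rian (log2 −0.14), Snhg11 (−0.07) and Snhg14 (0.04) were also opposite to cluster 3, by small amounts. Malat1 stood at 43355 CPM (log2 0.92 to the shared excitatory clusters), Mirg at 111 against 225 (log2 −1.02) and Miat at 334 (log2 −0.70). Meg3 was 9623 (log2 −0.32), Snhg14 924 (log2 0.04) and Neat1 6.04 (log2 0.85, the direction of cluster 3), and mitochondrial genes in sum were lower by a log2 ratio of −0.93. The 50 WMI cells of that cluster also had high Malat1, at 38865 (log2 1.13 to the WMI shared clusters). In the WMI library the unnamed cluster 6, led by Spp1, Ctsd and Ftl1, had Malat1 at 35947 and Neat1 at 109 CPM from 821 cells.

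**Figure D5:**
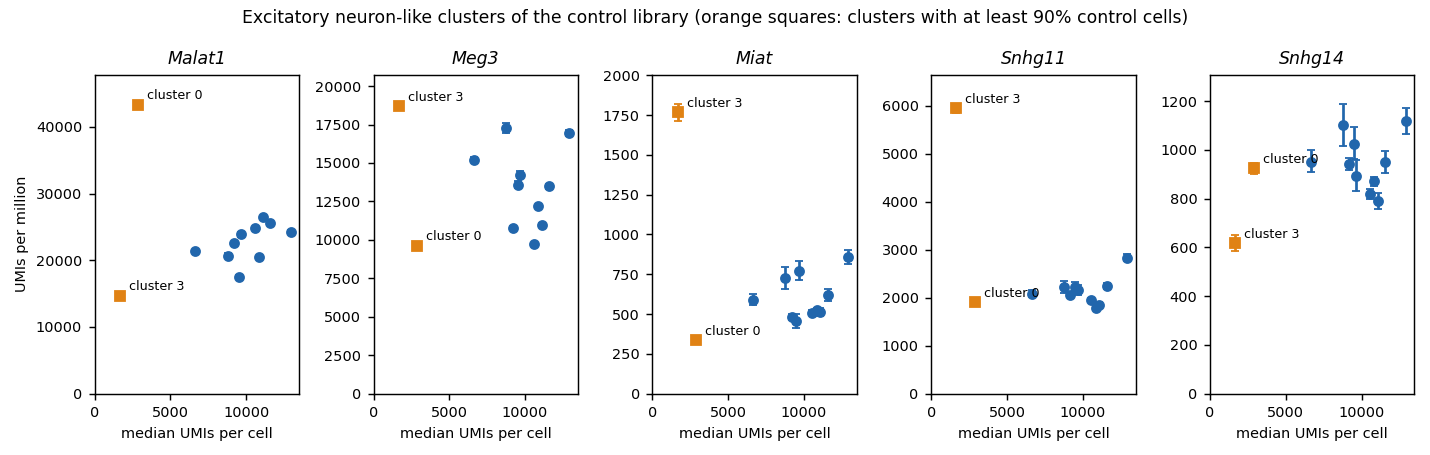
Level of 5 members (CPM) in each excitatory neuron-like cluster of the control library with at least 50 cells, against the cluster's median UMIs per cell. Orange squares are clusters 0 and 3, with at least 90% control cells, blue circles are shared clusters, and bars are exact 95% Poisson intervals. Malat1 was 43355 in cluster 0 and 14662 in cluster 3, outside the 17538 to 26497 of the shared clusters.

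Among the 10 shared excitatory clusters of 50 or more cells the members varied moderately. In control Meg3 ran 1.78-fold, from 9718 in cluster 4, led by Gm20752 and Rorb, to 17275 in cluster 25, led by Tcerg1l and Robo3. The WMI library had the same 2 clusters at the ends, at 10133 and 17765. Rian and Mirg were lowest and highest in the same 2 clusters of both libraries.

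Malat1 was lowest in cluster 22 and highest in cluster 12 of both libraries, at 17538 and 26497 in control and at 14082 and 21724 in WMI. Pantr1 varied more than the other members apart from Neat1, which was at 0 in one control cluster, and ran 3.47-fold in control (31.9 to 111) and 4.55-fold in WMI (24.4 to 111), with cluster 13 highest in both. Among inhibitory clusters Pantr1 was highest in both libraries in cluster 20, led by Sst, at 78.6 and 79.3, and lowest in cluster 14, at 28.3 and 17.8.

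Related genes were counted in the excitatory neuron-like cells of shared clusters, where 7.05% of all genes were past the fold, and nothing particular to a list is read from its count. Of the protein-coding imprinted neighbours of Meg3, 2 of 4 had enough UMIs. Rtl1, a retrotransposon-derived gene opposite microRNAs of this domain, was past the fold at 17.8 and 11.4 CPM (log2 −0.65), and Begain was at −0.37. Dlk1 had 0 and 11 UMIs. Of the 8 neighbours of Snhg14, 4 had enough UMIs and 1 was past the fold, Atp10a (log2 0.84), while Ube3a, the ubiquitin ligase gene that Snhg14 overlaps, was at −0.03 and Snrpn at 0.23.

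Of 19 other imprinted genes with enough UMIs 1 was higher, Nnat (log2 1.37, named after its value was seen), and the imprinted lncRNA Kcnq1ot1 was at −0.04. None of 15 genes of paraspeckle and speckle proteins and splicing factors was past the fold. Srrm2 was at −0.22, Celf1 at 0.03 and Son, the gene of a core speckle protein, at −0.33. Of 10 other snoRNA hosts 1 was lower, Snhg9 (log2 −0.59), with Gas5 at 0.31 and a list median of 0.02. Over all excitatory neuron-like cells, clusters 0 and 3 included, 5 of 11 were lower, with a list median of −0.51, beside 9.14% of all genes past the fold. Cluster 3 (1094 control and 32 WMI cells) was led by Snhg9, with Snhg20 also among its leading genes, and both are on this list. Of 15 other lncRNAs 2 were higher, Rmst (0.72) and 2610307P16Rik (0.59), and 1 was lower, Pantr2 (−0.63), these 3 named after their values were seen. The list medians lay between −0.51 for the 2 Meg3 neighbours and 0.13 for the Snhg14 neighbours.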

How the data were processed

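The members and lists were chosen with earlier results of these data known. The values are counts, UMIs per gene and barcode, deposited by the authors without normalization, made with Cell Ranger 6.1.1 per the file headers. The submitters' processing notes name mm9 and Seurat, but the gene list is that of GENCODE M21 (GRCm38) for 55450 of 55450 genes, and coordinates are taken from it. Whether intronic reads were counted is not given in the sources used here, nor is the library chemistry. Each group had 1 library here, although the study's methods speak of several.

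Barcodes with at least 1000 UMIs, 500 genes and at most 10% mitochondrial UMIs were kept, and predicted doublets (0.8% per 1000 barcodes, from simulated ones) were removed, 785 control and 542 WMI. Libraries were integrated in Seurat 5.3.0 (R 4.3.3, 2000 features, 30 dimensions) and clustered at a resolution of 0.8, with the members and listed genes left out of the features. A cluster was called "X-like" when at least 4 markers and 40% of its list passed, with a looser marker rule (60%) for neurons, and stayed unnamed where other markers or mitochondrial genes led. Clusters with at least 90% of cells from 1 library were called mostly of 1 library. Levels are pooled UMIs per 1000000 (CPM), and intervals were computed with scipy 1.17.1. Those of ratios were run on simulated Poisson counts, which hold no spread between cells, animals or libraries. That run therefore bears on counting error only. Named genes are the 9 members, the 3 genes most like each over clusters, and at most 4 per list with most UMIs, apart from those said to be named after their values were seen. Some genes that this rule picks are not reported here. Alternatives changed the filters, doublets, denominator, pooling, thinning, clustering and the fold.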

Additional observations from a re-analysis of the deposited data

Results flagged for a closer look

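Some ratios had opposite signs in 2 classes or in the 2 libraries, and none of these differences was tested. For Malat1 the log2 ratio of WMI to control was −0.37 in excitatory neuron-like cells of shared clusters and 0.37 in mature OL-like cells. For Meg3 it was −0.36 in mature OL-like cells and 0.053 in excitatory neuron-like cells of shared clusters. The Malat1 value in mature OL-like cells was over pooled UMIs, which the median cell did not follow. As said above, glial Meg3 levels are not read as expression. The log2 ratio of cells of 1000 to under 2000 UMIs to cells of 16000 or more was −0.44 in control and 0.81 in WMI for Malat1. It was 0.55 and −0.45 for Meg3, 0.75 and −0.16 for Rian, and 0.70 and −0.45 for Mirg. The cells behind the control values were 698 excitatory neuron-like cells of 744. Without the clusters mostly of 1 library, Meg3 was 6224 CPM in shallow and 12235 in deep control cells, and 8318 and 12349 in WMI. Rian was 546 and 1040 in control and 743 and 933 in WMI. Mirg was 117 (9 UMIs) and 206 in control and 118 and 172 in WMI. Each was thus lower in the shallow cells of both libraries. Those shallow cells were mostly microglia-like in control and mostly unnamed in WMI.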

How the results depend on the processing

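No paired analysis was possible because each group has 1 library, and for the same reason no library could be left out. The log2 ratio of the 9 members summed, −0.16 over all kept cells, was −0.17 over all barcodes with no filter, −0.17 with doublets kept, −0.16 with a minimum of 2000 UMIs, −0.15 with mitochondrial genes and Malat1 left out of the denominator, −0.18 as a mean over cells, −0.18 with thinned cells, −0.11 without clusters mostly of 1 library, −0.13 in cells with a Y-linked UMI and no Xist UMI, and −0.21 as a weighted mean within classes. In excitatory neuron-like cells, −0.31 became −0.32 with the other denominator, −0.41 over cells, −0.42 thinned, −0.21 without clusters mostly of 1 library and −0.27 in cells with Y-linked UMIs. Members past 1.5-fold there went from 1 to 3 over cells and 3 with thinned cells, and 4 were past a lower fold line (Neat1 higher, Malat1, Miat and Snhg11 lower). The 3 over cells were Neat1 (0.93), Malat1 (−0.65) and Snhg11 (−0.64). The 3 with thinned cells were Malat1 (−0.65), Miat (−0.59) and Snhg11 (−0.65), and Neat1 was not among them (0.57, interval −0.25 to 1.34). The share of all genes past the fold was not computed under these settings.

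The shallow to deep log2 ratio of Malat1 in control, −0.44, was −0.47 over cells, −0.47 thinned, −0.62 in excitatory neuron-like cells and reversed to 0.81 without clusters mostly of 1 library, whose cells make up most of that depth class. In WMI, 0.81 became 0.85 with the other denominator, 0.80 without those clusters, 0.74 in cells with Y-linked UMIs and 0.36 in excitatory neuron-like cells. The neuronal to non-neuronal log2 ratio of Meg3 in control, 1.47, was 1.44 with the other denominator, 1.35 over cells, 1.38 thinned, 1.49 without those clusters and 1.52 in cells with Y-linked UMIs. In WMI, 1.65 became 1.66 at 2000 UMIs, 1.6, 1.47 and 1.46 in the same order, and 1.74 in cells with Y-linked UMIs. Neat1 in excitatory neuron-like cells, 1.28, ranged from 0.57 in thinned cells to 1.68 without clusters mostly of 1 library. The causes of these shifts were not tested. Of 51 values for single members under alternatives, 34 moved, 17 did not and 0 reversed. Moved means outside the counting interval of the main value. These values include Neat1, Pantr1 and Malat1 in astrocyte-like clusters 9 and 16, a split added after the data had been seen, and all of those moved. For the main results 34 values moved, 20 did not and 1 reversed, the Malat1 depth ratio in control. There, a count moved when it changed by more than 1.5-fold.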
